A study of Rattus norvegicus with 23 samples.

Results

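The genes of the major histocompatibility complex, which carries the name RT1 in the rat, were examined together with the genes that serve antigen presentation in the lungs of elderly rats after inhalation of titanium dioxide. Members were every gene on the array whose symbol begins with RT1- and 13 named genes (Cd74, Ciita, B2m, Tap1, Tap2, Tapbp, Psmb8, Psmb9, Psmb10, Nlrc5, Cd80, Cd86 and Cd83), chosen by name, with earlier results of these data known. This gave 61 of the 25597 named genes on the array. RT1 genes with a symbol in B, D or H were taken as class II (10 genes) and the other RT1 genes as class I (38 genes). After the filter on dim probes, 60 of the 61 were measured among 23029 genes tested. The missing member was RT1-Ba, the alpha chain of the RT1-B molecule, whose only probe was not well above background on any array.

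Total RNA from the accessory lobe of the lung was hybridised to single-colour Agilent arrays with 1 rat per array, 23 arrays in all. All rats were male F344 rats aged 19 months and were killed on D0, the end of the exposure, or on D28. Exposed rats breathed a nano-aerosol of TiO2 at 10 mg/m3 through the nose only, over 4 weeks with 5 exposure days of 6 h in each, and control rats breathed filtered air in the same way. D0 had 6 controls and 5 exposed animals, and D28 had 6 of each. For the exposed D28 animals the source field says day 0, but day 28 stands in their titles and descriptions and was used.

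The arrays lay on 5 slides, each scanned on 1 day, with no saturated spot and a share of 69.5% to 77.9% well above background per array. The surfactant protein gene Sftpa1, one of the 8 lung markers looked at, was at a mean log2 signal of 15.88 in the controls of D0. Of the 61 members, 52 had a probe well above background on all 23 arrays. In this whole-lobe RNA, fewer cells of a type and less RNA per cell cannot be told apart. Exposed array 4 of D0 stood apart among the members: it was the highest of its 5 arrays for 41 of the 60 measured members. Control array 4 of D28, alone on its slide and read with a later version of the feature extraction software, was the lowest of its 6 arrays for 40 of the 60. Calls that change without them, and single values that turn or move most, are given both ways.

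Class I molecules consist of a heavy chain and beta-2 microglobulin and show peptides from the cytosol, cut by the proteasome and carried into the endoplasmic reticulum by the TAP transporter, to CD8 T cells on almost all cells. Class II molecules are pairs of alpha and beta chains that show peptides from endosomes to CD4 T cells, and in the lung are found mainly on dendritic cells, macrophages, B cells and some epithelial cells. The invariant chain Cd74 guards the class II groove until cathepsins degrade it, the DM molecule then exchanges the remaining fragment for peptide, and the transactivators Ciita and Nlrc5 switch on class II and class I genes, respectively, at a promoter module with an X box and a Y box.

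The promoters below are shown because all measured class II genes lay higher in exposed rats on these arrays, whereas class I genes lay on both sides of zero, as described further on. They are the 160 bases before the start of each gene in RefSeq (GRCr8), read 5′ to 3′ on the strand of the gene, with matches to the X box core AACNGATG and the Y box ATTGG (or its complement CCAAT) in capitals.
RT1-Da, chr20:4515255-4515414, plus strand: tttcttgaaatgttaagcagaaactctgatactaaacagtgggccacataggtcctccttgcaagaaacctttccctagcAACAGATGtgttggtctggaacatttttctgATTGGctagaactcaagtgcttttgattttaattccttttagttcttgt
RT1-Db1, chr20:4560163-4560322, minus strand: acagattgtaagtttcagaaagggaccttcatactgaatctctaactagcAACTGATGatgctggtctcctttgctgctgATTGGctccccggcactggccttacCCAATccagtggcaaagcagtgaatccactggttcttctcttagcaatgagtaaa
RT1-Db2, chr20:4541596-4541755, minus strand: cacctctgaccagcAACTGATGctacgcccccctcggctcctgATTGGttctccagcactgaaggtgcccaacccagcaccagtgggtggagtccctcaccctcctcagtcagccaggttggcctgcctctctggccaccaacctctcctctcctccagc
RT1-DOb, chr20:4627524-4627683, minus strand: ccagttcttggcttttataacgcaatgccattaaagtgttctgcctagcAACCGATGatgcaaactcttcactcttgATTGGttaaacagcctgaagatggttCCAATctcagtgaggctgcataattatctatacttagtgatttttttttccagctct
RT1-A2, chr20:4872711-4872870, plus strand: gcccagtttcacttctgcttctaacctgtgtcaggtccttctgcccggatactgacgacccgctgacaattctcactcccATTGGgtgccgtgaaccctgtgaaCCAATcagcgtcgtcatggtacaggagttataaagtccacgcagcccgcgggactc
B2m, chr3:129549170-129549329, plus strand: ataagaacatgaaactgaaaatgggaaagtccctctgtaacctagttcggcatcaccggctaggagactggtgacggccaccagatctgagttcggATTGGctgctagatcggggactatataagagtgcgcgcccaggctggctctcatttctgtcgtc
In RT1-Da the X box core began 80 bases and the Y box 49 bases before the start, a step of 31 bases. The step was 30 bases in RT1-Db1, 29 bases in RT1-Db2 and 28 bases in RT1-DOb. Among the 33469 rat promoter windows of 300 bases, each of 250 bases before and 50 after a start, 2.58% held the X box core on either strand and 37.5% the Y box. Both on the strand of the gene, with the Y box starting no more than 50 bases after the X box core, occurred in 20 windows (0.0598%). That arrangement was found in 4 of the 8 class II genes with a window and in 0 of the 30 class I genes, whereas the Y box alone was in 8 of 8 class II and 21 of 30 class I windows. The X box letters were chosen after the windows had been read. The counts therefore cannot test whether class II windows hold this arrangement more often than other windows. Nor do they show whether class I windows hold an X box of other letters. The window of Cd74 held a Y box and no X box core. A match describes letters and not a bound site. Promoters of Ciita, Nlrc5 and RT1-DMb were not analysed here.

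The first question was whether class II genes differed between exposed and control rats. All 9 measured class II genes were at higher mean signals in the exposed rats on D0 and again on D28, with a median log2 FC of 0.42 on D0 and 0.56 on D28. Without 1 array, this class II median ranged from 0.27 to 0.46 on D0 and from 0.41 to 0.66 on D28. Exposed array 4 of D0 was the highest of its group for 8 of the 9 class II genes. The medians over all genes tested were below 0.01 in size. The 38 class I genes had a median of 0.08 on D0 and 0.13 on D28, with 25 and 29 of them higher. The measured class II genes were higher on both days in all settings tried, except that 9 of 10 were higher on D0 when no filter on dim probes was applied, which adds RT1-Ba. The class I median of D0 turned to -0.02 without exposed array 4 of D0. On D28 the class I median ranged from 0.01 to 0.20 without 1 array. Without control array 4 of D28, 20 of the 38 class I genes were higher on D28. Averaged over both days, an unadjusted p below 0.05 with a higher value was found in 9 of 9 class II genes, and in 7.55% of all genes.

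**Figure D1:**
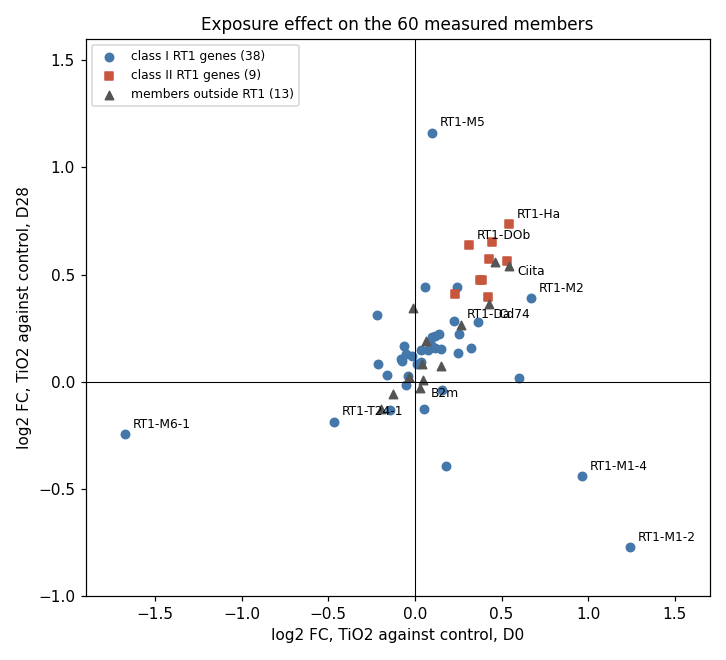
Log2 FC of exposed against control rats on D0 (horizontal axis) and on D28 (vertical axis) for each of the 60 measured members: circles for class I, squares for class II and triangles for members outside RT1. All 9 class II squares lie in the upper right quadrant, while the class I circles lie on both sides of zero, from -1.67 to 1.24 on D0, with medians of 0.08 on D0 and 0.13 on D28.

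On D0, limma called 2 of the 60 members over-expressed and 0 under-expressed, beside 2.86% of all genes called in either direction. These were RT1-Da, the alpha chain of the RT1-D molecule, and Cd74. An unadjusted p below 0.05 was reached by 11 members (9 higher and 2 lower), where 11.9% of all genes did so. On D28 it called 0 of the 60, beside 1.32% of all genes, although 13 members, each higher, reached an unadjusted p below 0.05, against 4.81% of all genes with such a p and a higher value. For the exposure effect averaged over both days, 7 members were over-expressed and 0 under-expressed, where 3.05% of all genes were called higher. They were RT1-Da, RT1-DMa, RT1-DMb, Cd74, Ciita, Cd83 and RT1-M2. None of the 7 reached a FC of 1.5 over both days. No member passed both the adjusted p and the FC of 1.5, so 0 members were DEGs on D0 (1.79% of all genes), on D28 (0.756%) or averaged over both days (1.87%).

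The slide was a batch that held both exposed and control arrays in most cases. With the slide as a fixed block, limma called 9 members higher and 1 lower on D0 (5.36% of all genes called), 3 higher on D28 (2.76%) and 12 higher and 1 lower averaged over both days (10.4%). The 9 on D0 were Cd74, Ciita, RT1-M2 and 6 class II genes (RT1-Da, RT1-Db1, RT1-Db2, RT1-DMa, RT1-DMb and RT1-DOa), and the lower one was the dim RT1-M6-1. That block uses up control array 4 of D28, which is alone on its slide. With the slide as a random block the counts were 4 higher and 1 lower on D0 (5.12%), 3 higher on D28 (2.77%) and 13 higher and 1 lower averaged over both days (10.2%). Over both days each block called, beside the 7 members above, RT1-Db1, RT1-Db2, RT1-DOa, RT1-DOb and RT1-A1 higher. The random block added RT1-Bb, and the lower call was RT1-T24-4 with the fixed and RT1-M6-1 with the random block. Without exposed array 4 of D0 the counts were 0 higher and 1 lower on D0 (1.98%), 2 higher on D28 (1.69%) and 5 higher and 1 lower averaged over both days (5.63%). Without control array 4 of D28 they were 3, 0 and 6 higher with 0 lower (3.14%, 1.06% and 6.79%). Without both, Cd74 was called higher and Psmb9 lower on D0 (2.22%), Ciita higher on D28 (1.3%), and 5 higher and 1 lower averaged over both days (5.63%). Those 5 were Cd74, Cd83, Ciita, RT1-Da and RT1-Db2, and the lower one was Psmb9. Over both days RT1-DMa and RT1-DMb were not called without exposed array 4 of D0, without control array 4 of D28 or without both. RT1-M2 was lost without both and kept without either one alone.

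Ciita, the transactivator that class II transcription depends on, lay between 8.05 and 8.33 with a median of 8.27 in the controls of D0 (log2 signal), and at 8.48, 8.68, 8.96, 9.52 and 8.26 in the 5 exposed rats. On D28 the controls lay between 7.73 and 8.32 with a median of 8.22 and the exposed rats between 8.45 and 8.85 with a median of 8.65. The D0 groups overlapped by 1 exposed rat, and the D28 groups did not overlap. Groups that did not overlap, with the exposed rats higher, were seen for 1 member on D0, where 1.94% of all genes did so, and for 3 members on D28, where 0.682% of all genes did so. Over both days the log2 FC of Ciita was 0.54 ± 0.11 (SE; FC = 1.45; limma adjusted p = 0.0037), and its 2 probes gave 0.55 and 0.53 each on its own. On D0 alone it was 0.54 ± 0.16 (limma adjusted p = 0.076), and 0.36 without exposed array 4 (limma adjusted p = 0.22). On D28 alone Ciita had 0.54 ± 0.15 (limma adjusted p = 0.090). Its lowest D28 control value, 7.73, was that of control array 4. Without 1 array the D28 value ranged from 0.46 to 0.58 (limma adjusted p from 0.018 to 0.19).

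Cd74, the invariant chain, lay between 14.78 and 15.08 with a median of 14.99 in the controls of D0 and at 15.37, 15.43, 15.48, 15.60 and 15.17 in the exposed rats. On D28 it lay between 14.47 and 15.21 with a median of 15.12 in the controls and between 15.21 and 15.53 with a median of 15.34 in the exposed rats. The groups did not overlap on either day, although on D28 the highest control and the lowest exposed rat both read 15.21. The log2 FC was 0.43 ± 0.11 on D0 (SE; FC = 1.35; limma adjusted p = 0.045), 0.36 ± 0.11 on D28 (FC = 1.29; limma adjusted p = 0.12) and 0.40 ± 0.08 over both days (limma adjusted p = 0.0031). Without exposed array 4 of D0, the D0 value was 0.38 (limma adjusted p = 0.13). The lowest D28 control value, 14.47, was that of control array 4. Without 1 array the D28 value ranged from 0.26 to 0.40 (limma adjusted p from 0.11 to 0.22). The D0 call was lost in 15 of the 23 fits without 1 array (adjusted p from 0.0063 to 0.13), while the value over both days was called in all 23.

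**Figure D2:**
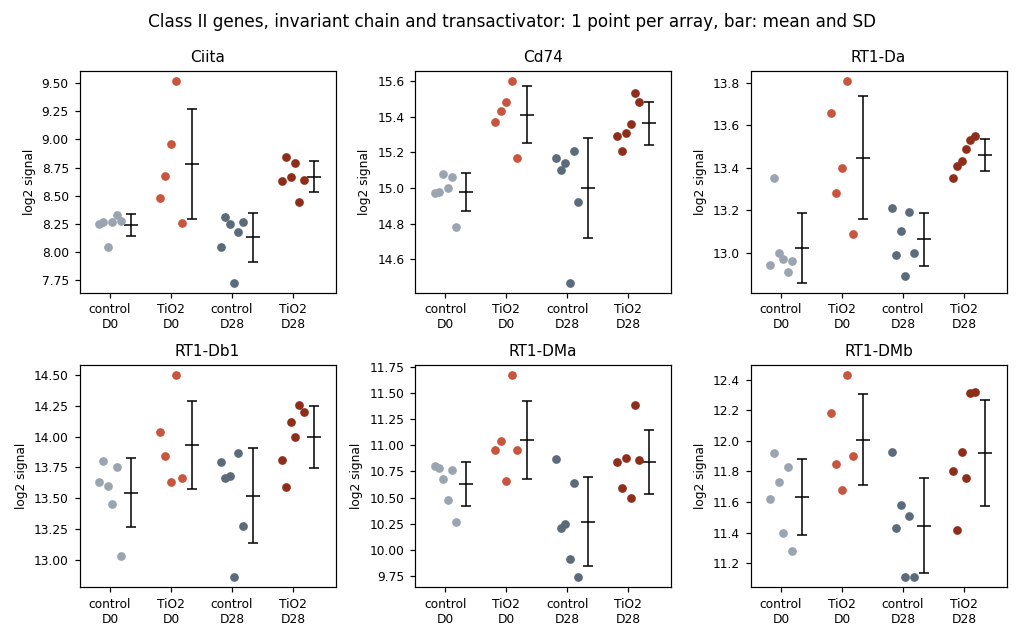
Log2 signal of Ciita, Cd74, RT1-Da, RT1-Db1, RT1-DMa and RT1-DMb in the 4 groups, with 1 point per array and the mean and SD beside each group. The Cd74 groups do not overlap on either day, and exposed array 4 is the highest D0 point in all 6 panels.

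The chains of the RT1-D molecule, which presents peptide on the cell surface, came next. RT1-Da was at 12.91 to 13.35 with a median of 12.97 in the controls of D0 and at 13.66, 13.28, 13.40, 13.81 and 13.09 in the exposed rats. On D28 it was at 12.89 to 13.21 with a median of 13.05 in the controls and at 13.35 to 13.55 with a median of 13.46 in the exposed rats. The groups were apart on D28 and overlapped on D0 through control rat 2 and the 2 lowest exposed rats. The log2 FC was 0.42 ± 0.11 on D0 (SE; FC = 1.34; limma adjusted p = 0.041), 0.40 ± 0.11 on D28 (limma adjusted p = 0.070) and 0.41 ± 0.08 over both days (limma adjusted p = 0.0019). Without exposed array 4 of D0 it was 0.33 on D0 (limma adjusted p = 0.14). The D0 call was lost in 9 of the 23 fits without 1 array (adjusted p from 0.012 to 0.14), and that over both days in 0. Its probe, A_44_P991532, lies at chr20:4641104-4641163 on rn4, the build of the array files, whose gene models were not used here.

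RT1-Db1 and RT1-Db2, beta chains of the same molecule, differed by similar amounts with wider spread. RT1-Db1 was at 13.03 to 13.80 with a median of 13.61 in the controls of D0 and at 14.04, 13.84, 13.63, 14.50 and 13.66 in the exposed rats. On D28 its controls lay between 12.86 and 13.87 and the exposed rats between 13.59 and 14.26. Its groups overlapped on both days, with a log2 FC over both days of 0.43 ± 0.13 (limma adjusted p = 0.054). RT1-Db2 had a log2 FC over both days of 0.55 ± 0.18 (limma adjusted p = 0.074), and its lowest value, 10.04, was that of control array 4 of D28. Without that array RT1-Db2 was called higher over both days.

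The RT1-B molecule was read by a beta chain only. RT1-Bb had 1 probe well above background on all 23 arrays and 1 on none, and the mean of the pair had a log2 FC of 0.32 ± 0.12 over both days (limma adjusted p = 0.13). The bright probe alone had 0.50 ± 0.15 (limma adjusted p = 0.061 when each probe was tested on its own) and the dim probe 0.14 ± 0.18, so the averaged value understates the bright probe.

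RT1-DMa and RT1-DMb encode the chains of DM, the editor of class II peptides. RT1-DMa was at 10.27 to 10.80 with a median of 10.72 in the controls of D0 and at 10.95, 11.04, 10.66, 11.67 and 10.95 in the exposed rats. On D28 it was at 9.74 to 10.87 with a median of 10.23 in the controls and at 10.50 to 11.38 with a median of 10.85 in the exposed rats. The groups overlapped on both days, and over both days the gene rose by 0.50 ± 0.14 (log2, SE; FC = 1.41; limma adjusted p = 0.030). RT1-DMb was at 11.28 to 11.92 with a median of 11.68 in the controls of D0 and at 12.18, 11.85, 11.68, 12.43 and 11.90 in the exposed rats. On D28 it was at 11.11 to 11.93 in the controls and at 11.42 to 12.32 in the exposed rats, so that the groups again overlapped. Over both days RT1-DMb rose by 0.43 ± 0.12 (log2, SE; FC = 1.34; limma adjusted p = 0.042), a call that was lost in 15 of the 23 fits without 1 array (adjusted p from 0.018 to 0.092), as that of RT1-DMa was in 5 (0.011 to 0.066). RT1-DOa and RT1-DOb, the chains of DO, which restrains DM, had a log2 FC over both days of 0.55 ± 0.20 and 0.48 ± 0.16 (limma adjusted p = 0.12 and 0.081), and both were called with either slide block.

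RT1-Ha had the highest class II log2 FC on both days, 0.54 ± 0.42 on D0 and 0.73 ± 0.40 on D28 (limma adjusted p = 0.77 and 0.54). It was well above background on 1 of the 23 arrays, so this value lies near the detection limit.

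The same comparison was made within each slide, where exposed and control arrays of 1 day met 7 times (4 times on D0 and 3 times on D28). In all 7, the exposed mean was higher for RT1-Da, RT1-Db1, RT1-Db2, RT1-DMa, RT1-DMb, RT1-DOa, Cd74, Ciita, RT1-A1 and RT1-M2. These are 10 of the 60 members, and 6 of the 9 class II genes against 2 of the 38 class I genes, where 5.26% of all genes were higher in all 7. Cd74 was higher by 0.23 to 0.70 within a slide, RT1-Da by 0.20 to 0.88 and Ciita by 0.22 to 1.23. B2m ranged from -0.14 to 0.33 and was higher in 3 of the 7. Slides 1 and 5 of D0 and slide 5 of D28 each compared 1 exposed with 1 control array. Slide 4 of D0 and slides 1 and 3 of D28 compared 2 with 2, and slide 3 of D0 compared 1 exposed with 2 control arrays. The slide 3 value of D0 rests on exposed array 4 alone, and gave the highest difference for RT1-Da and Ciita.

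**Figure D3:**
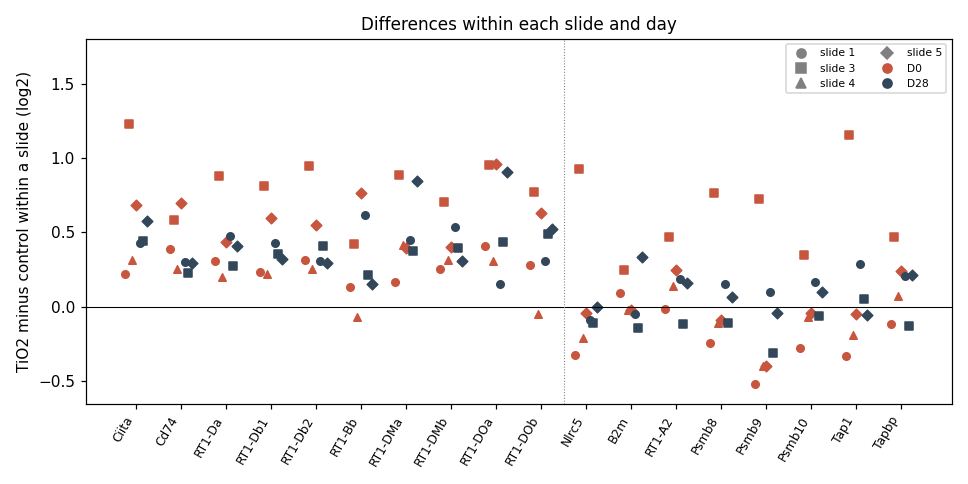
Exposed minus control mean (log2) within each slide and day for 10 genes of the class II side (left of the dotted line) and 8 of the class I side (right of it), with the slide as the marker shape and the day as the colour. Each point rests on 1 or 2 exposed and 1 or 2 control arrays. For Ciita, Cd74 and RT1-Da all 7 points lie above zero, while those of Nlrc5, Psmb8 and Tap1 lie on both sides of zero, with the D0 value of slide 3 the highest of each.

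On the class I side, the invariant partner and the transactivator were measured first. B2m, beta-2 microglobulin, was at 16.38 to 16.58 with a median of 16.47 in the controls of D0 and at 16.67, 16.51, 16.43, 16.75 and 16.23 in the exposed rats. On D28 it was at 16.21 to 16.69 in the controls and at 16.36 to 16.64 in the exposed rats. The groups overlapped on both days, and the log2 FC over both days was 0.03, with a 95% interval of -0.11 to 0.17. Nlrc5, the class I transactivator, was at 8.54 to 9.14 in the controls of D0 and at 8.50, 8.57, 8.87, 9.77 and 8.63 in the exposed rats, the fourth value being exposed array 4. On D28 it was at 8.52 to 9.01 in the controls and at 8.70 to 8.98 in the exposed rats. Its log2 FC was 0.03 on D0 (95% interval of -0.32 to 0.38) and -0.03 on D28 (-0.37 to 0.31). Without exposed array 4 the D0 value of Nlrc5 turned to -0.20 and that of B2m from 0.05 to -0.01, neither of them called.

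For 2 pairs of genes, a contrast was also computed within each array, as the log2 signal of a gene of the class II side less that of a gene of the class I side. The genes were Cd74 less B2m and Ciita less Nlrc5, so that no RT1 gene entered. Over both days B2m and Nlrc5 had a log2 FC of 0.03 and -0.0005. Of the 38 class I genes 29 were higher and 9 lower over both days, with a median of 0.10. The differences therefore describe these 2 pairs and not class II against class I as a whole. A level of this difference mixes 2 probes and has no meaning alone, so only its change between groups is read. Cd74 less B2m was -1.11 ± 0.13 in the exposed rats of D0 (SD, n = 5) and -1.49 ± 0.14 in their controls (n = 6), a difference of 0.38 (two-sided exact permutation p = 0.0043, adjusted 0.0065), and 5 of 5 exposed rats exceeded every control. On D28 the difference was 0.36 (exact permutation p = 0.0065, adjusted 0.0065) with 5 of 6 exposed rats above all controls. Ciita less Nlrc5 differed by 0.51 on D0 (exact permutation p = 0.0065, adjusted 0.0065), with 4 of 5 exposed rats above all controls. On D28 it differed by 0.57, and 6 of 6 exposed rats exceeded every control (exact permutation p = 0.0022, the smallest this design allows, adjusted 0.0065). These 4 tests were chosen after the values had been seen, and each difference was also called under the 5 other scalings or signals tried and without any 1 array.

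The immunoproteasome subunits Psmb8, Psmb9 and Psmb10, which cut peptides for class I, and the peptide transport genes did not pass the test on either day. Psmb8 was at 12.40 to 12.63 in the controls of D0 and at 12.23, 12.39, 12.53, 13.32 and 12.36 in the exposed rats, and on D28 at 12.12 to 12.55 in the controls and 12.33 to 12.54 in the exposed rats. The Psmb8 groups overlapped on both days, with a log2 FC over both days of 0.06 (95% interval of -0.14 to 0.26), which turned to -0.03 without exposed array 4 of D0. Psmb10 was at 13.91 to 14.10 in the controls of D0 and at 13.80, 13.91, 14.01, 14.41 and 13.76 in the exposed rats, with a 95% interval of the log2 FC over both days of -0.15 to 0.14.

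Psmb9 was at 12.98 to 13.37 with a median of 13.10 in the controls of D0 and at 12.85, 12.63, 12.76, 13.86 and 12.59 in the exposed rats. In Psmb9, 4 of the exposed rats lay below all controls and exposed array 4 above them, so that the log2 FC on D0 was -0.20 ± 0.16 with all arrays (limma adjusted p = 0.80) and -0.43 without array 4 (limma adjusted p = 0.021, in a range of 0.021 to 0.96 over the fits without 1 array). On D28 the controls lay between 13.03 and 13.31 and the exposed rats between 12.85 and 13.21, and the log2 FC was -0.13 ± 0.15.

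Tap1, a subunit of the peptide transporter, was at 7.91 to 8.44 in the controls of D0 and at 8.05, 7.94, 7.97, 9.43 and 8.01 in the exposed rats. On D28 its controls lay between 7.11 and 8.21 and the exposed rats between 7.64 and 8.27. Its groups overlapped on both days, with a log2 FC over both days of 0.13 (95% interval of -0.21 to 0.46), which turned to -0.02 without exposed array 4 of D0. Tapbp encodes tapasin, the chaperone that joins class I to TAP. It was at 10.30 to 10.76 in the controls of D0 and at 10.65, 10.51, 10.68, 10.96 and 10.42 in the exposed rats, and its log2 FC over both days had a 95% interval of -0.04 to 0.27. Exposed array 4 of D0 read highest of the 5 for Nlrc5, B2m, Tap1, Tapbp, Psmb8, Psmb9 and Psmb10.

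**Figure D4:**
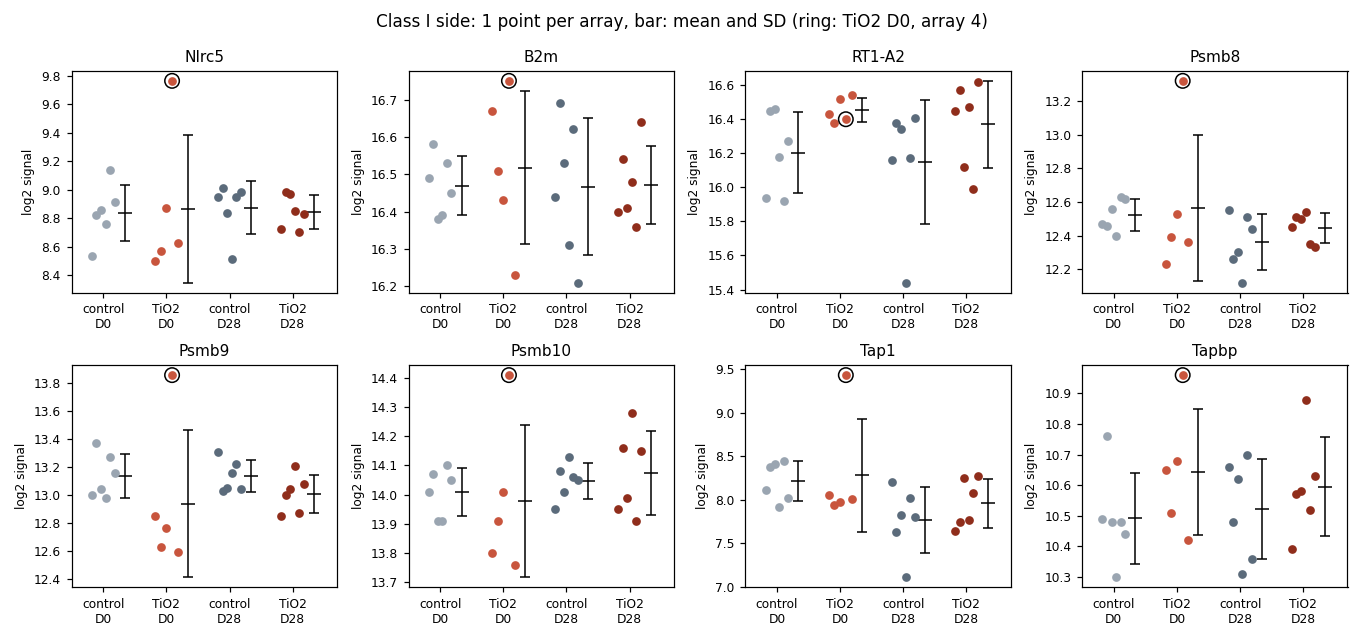
Log2 signal of Nlrc5, B2m, RT1-A2, Psmb8, Psmb9, Psmb10, Tap1 and Tapbp in the 4 groups, with 1 point per array and the mean and SD beside each group. A ring marks exposed array 4 of D0, which is the highest exposed D0 point in every panel but that of RT1-A2.

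Tap2, the other transporter subunit, split the arrays without regard to exposure. In 8 arrays it lay between 9.16 and 9.66 and in the other 15 between 10.58 and 11.82, and its 2 probes followed each other with r = 0.995 across the 23 arrays. The low arrays were 1 control and 1 exposed rat of D0 and 3 control and 3 exposed rats of D28. By slide they were 4 of the 6 arrays of slide 1 and all 4 of slide 5, and 0 of the 13 on the other slides. In the exposed rats of D0 it was at 11.32, 10.99, 9.52, 11.82 and 10.96. Its log2 FC was -0.01 ± 0.51 on D0 and 0.34 ± 0.48 on D28. After the group means were removed, which was not done for the r of the 2 probes, 710 of the other 23028 genes correlated with Tap2 above 0.8 in size. Of these, 288 were positive. The origin of the split was not tested.

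**Figure D5:**
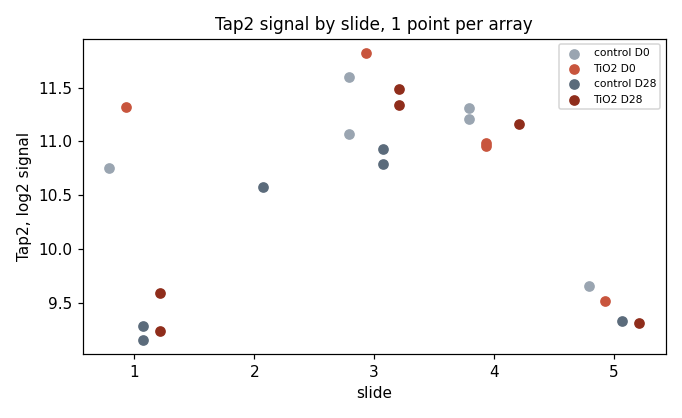
Tap2 log2 signal of each array by slide, with colours for the 4 groups. The 8 arrays between 9.16 and 9.66 lie on slides 1 and 5, and the arrays of slides 2, 3 and 4 all lie above 10.5.

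Among the class I heavy chains, RT1-M2 was the only one called in the fit without a block on the processed signal. RT1-M2, a gene of the non-classical RT1-M group, was at 6.49 to 7.30 with a median of 6.69 in the controls of D0 and at 7.24, 7.47, 7.54, 7.94 and 7.04 in the exposed rats. By D28 it was at 6.50 to 7.44 with a median of 7.21 in the controls and at 7.09 to 7.97 with a median of 7.50 in the exposed rats. The groups overlapped on both days. Over both days it rose by 0.53 ± 0.14 (log2, SE; FC = 1.44; limma adjusted p = 0.019), with 0.67 on D0 (limma adjusted p = 0.073) and 0.39 on D28 (limma adjusted p = 0.45).

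RT1-A1, RT1-A2 and RT1-A3, named for the classical RT1-A locus, had a log2 FC over both days of 0.25 ± 0.10, 0.24 ± 0.11 and 0.24 ± 0.10 (limma adjusted p = 0.14, 0.26 and 0.17). RT1-A1 was called higher over both days with either slide block, with the median signal and with the deposited table. RT1-A2 was at 15.92 to 16.46 with a median of 16.23 in the controls of D0 and at 16.43, 16.38, 16.52, 16.40 and 16.54 in the exposed rats. At D28 it stood at 15.44 to 16.41 in the controls, the lowest being array 4, and at 15.99 to 16.62 in the exposed rats. Its groups overlapped on both days. Of the 12 genes named RT1-CE, none passed the test, and their log2 FC over both days lay between -0.07 for RT1-CE11 and 0.32 for RT1-CE6. Of the 5 genes named RT1-T, 2 had a value above zero, and RT1-T24-1 had -0.33 ± 0.14 (limma adjusted p = 0.22).

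The widest class I values belonged to dim genes. The 32 class I genes with a probe well above background on all arrays had a log2 FC between -0.47 and 0.67 on D0. RT1-M6-1, well above background on 1 of the 23 arrays, had -1.67 on D0 (limma adjusted p = 0.058) and -0.24 on D28. RT1-M1-2, well above background on 3 arrays, had 1.24 on D0 and -0.77 on D28. Near-identical class I genes may also share a probe's signal: 26 pairs of probes of different class I genes, from 21 genes, matched over at least 30 aligned bases with 85% to 96.1% of them the same. No probe of another member had such a partner in a different member. Values of single class I genes are therefore uncertain between relatives. Probes were compared only with other probes, without gaps, and not with transcripts or with genes outside the members. Whether probes of class II genes also read their relatives was not tested.

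The co-stimulatory members, which give T cells their second signal or mark mature presenting cells, were mixed. Cd83, a marker of mature dendritic cells, was at 10.68 to 11.06 with a median of 10.87 in the controls of D0 and at 11.03, 11.11, 11.08, 11.31 and 11.19 in the exposed rats. Its D28 values were at 10.46 to 10.90 in the controls and at 10.80 to 11.14 in the exposed rats. Only 1 exposed rat of D0 lay within its controls, and over both days Cd83 rose by 0.27 ± 0.06 (log2, SE; FC = 1.20; limma adjusted p = 0.014).

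Cd86, a ligand of CD28, was at 4.99 to 6.41 in the controls of D0 and at 5.63, 5.26, 5.22, 4.88 and 5.02 in the exposed rats. Its log2 FC over both days had a 95% interval of -0.42 to 0.23. Cd80, the other CD28 ligand, was well above background on 2 and 1 control arrays and on 3 and 1 exposed arrays of D0 and D28. It was at 2.21 to 5.16 in the controls of D0 and at 2.19, 3.78, 5.13, 3.07 and 4.77 in the exposed rats, and its log2 FC over both days was 0.51 ± 0.53, so that a difference was not detectable at this signal.

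The effect on D28 was compared with that on D0 by an interaction term. It was called for 0 of the 60 members by limma, beside 0.0304% of all genes, and 2 members had an unadjusted p below 0.05 (3.44% of all genes). For RT1-Da the difference was -0.03 (95% interval of -0.35 to 0.29) and for Cd74 -0.07 (-0.40 to 0.26). Between the controls of D28 and those of D0, 0 members were called (0.877% of all genes), 10 had an unadjusted p below 0.05 (13.3%), and 41 of 60 were lower on D28.

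Correlations over the 23 arrays were computed for 3 pairs chosen for known biology. The mean of each group was removed first, so that they leave out the differences between groups. Ciita and Cd74 had r = 0.48 (permutation p = 0.034, adjusted 0.052) and rho = 0.23 (permutation p = 0.34, adjusted 0.34), with r = 0.33 without the 2 farthest arrays. Nlrc5 and B2m had r = 0.42 (permutation p = 0.16, adjusted 0.16) and rho = 0.34 (permutation p = 0.15, adjusted 0.23), with r = 0.38 without the 2 farthest. Tap1 and Psmb9, neighbours in the class II region, had r = 0.76 (permutation p = 0.012, adjusted 0.035) and rho = 0.67 (permutation p = 0.0039, adjusted 0.012), with r = 0.62 without the 2 farthest. Without exposed array 4 of D0 alone the last r was 0.35 and no longer passed.

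Genes outside the members were read from lists that hold no members, with 6.55% of all genes called over both days. Of 21 measured genes for peptide loading and processing, 5 rose and 0 fell over both days, with a median log2 FC of 0.03. The 5 act in endosomes: Ifi30, the thiol reductase that unfolds antigens, rose by 0.43 ± 0.07 (limma adjusted p = 0.00037), Ctss, the cathepsin that trims the invariant chain, by 0.33 ± 0.08 (limma adjusted p = 0.011), Ctsb by 0.30 ± 0.07, Ctsd by 0.23 ± 0.06 and Lgmn by 0.32 ± 0.09 (limma adjusted p = 0.012, 0.033 and 0.042). Ifi30 was also called on D0 (0.44) and D28 (0.41). Of the 18 regulators of MHC transcription, 0 were called on either day or over both, with a median of 0.06 over both days.

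Of 14 measured co-stimulation and checkpoint genes, 3 rose over both days: Tnfsf9 by 0.69 ± 0.14, Icos by 0.45 ± 0.11 and Havcr2 by 0.49 ± 0.13 (limma adjusted p = 0.0045, 0.010 and 0.020). Of the 6 non-classical presenters and relatives, Azgp1 fell by 0.24 on the log2 scale (limma adjusted p = 0.013). Of 17 interferon-induced genes, Usp18 alone rose (0.49 ± 0.11; limma adjusted p = 0.0060), with a list median of 0.11.

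Of the markers of cells that can carry class II, 2 of 9 for macrophages, 2 of 9 for dendritic cells and 0 of 9 for B cells were called over both days. Of the macrophage markers, Cd68 rose by 0.48 ± 0.07 and Siglec1 by 0.70 ± 0.11 over both days (limma adjusted p = 0.00013 and 0.00035), and the mean log2 signal of the list was 8.76 to 9.07 in the controls of D0 against 9.17 to 9.51 in the exposed rats, without overlap. On D28 it was 8.70 to 9.15 against 8.89 to 9.31. Of the dendritic cell markers, Clec9a rose by 0.67 ± 0.17 and Clec10a by 0.38 ± 0.11 (limma adjusted p = 0.015 and 0.040), and the list lay at 8.62 to 8.83 in the controls of D0 against 8.82 to 9.20 in the exposed rats. The D28 controls lay at 8.60 to 9.003 against 8.89 to 9.12.

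The B cell list lay at 6.21 to 6.71 in the controls of D0 against 6.32 to 6.50 in the exposed rats. Of the 6 neutrophil markers 3 were higher over both days, with a list median of 0.01. Ncf1 alone was called and rose by 0.49 ± 0.08 (limma adjusted p = 0.00062). Monocyte, T cell and NK cell markers had 0 calls, with medians over both days of 0.15, 0.08 and -0.29. Of the 8 lung markers 2 were higher over both days, with a list median of -0.17. Among them Sftpa1 rose by 0.37 ± 0.10 and, of the others, Cdh5 fell by 0.31 on the log2 scale (limma adjusted p = 0.035 and 0.0053). The part of these markers in the class II values was not tested.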

How the data were processed

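The authors deposited the Agilent Feature Extraction output of each array (version 11.0.1.1 per the labels' processing notes, 12.0.1.1 on control array 4 of D28 per the file headers), with background-subtracted intensity (processed signal) per spot, and a normalized intensity table whose columns share 1 distribution. The processed intensity was used here, and the deposited table as an alternative. Spots flagged as outliers were left out, and the others were put on the log2 scale. Of 45598 probes 40417 were kept whose mean over spots exceeded the 95th percentile of the negative controls on at least 5 arrays. The spot values of these probes were quantile-normalized, averaged over the spots of a probe and then over the probes of a gene (23029 genes). A model of 4 group means (19 residual degrees of freedom) was fitted with limma 3.58.1 in R 4.3.3, with Benjamini-Hochberg adjustment over all genes. A call had an adjusted p below 0.05, and a DEG also a FC of at least 1.5. Python 3.11.15, pandas 2.3.3 and matplotlib 3.10.9 were used beside it, and the fit was tested on simulated data.

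Each member was accounted for. Values by group were given for every called member and, whatever their result, for a set of members named in a reporting rule (Cd74, RT1-Da, Ciita, B2m, RT1-A2, Nlrc5, Tap1, Tap2, Tapbp, Psmb8, Psmb9, Psmb10, Cd80, Cd86 and Cd83). That rule is apart from the one that defines the members. Called genes of the other lists were named, at most 5 per list. RT1-Db1, RT1-Db2, RT1-Bb, the RT1-DO genes, RT1-Ha, RT1-A1, RT1-A3 and single RT1-CE, RT1-T and RT1-M genes were named after their values were seen. The members and lists were chosen with earlier results of these data known. Alternatives covered scaling, background, signal, filter, probe summary, variance model, slide, replicate block, gene names and leaving out each array. Fits with 2 residual components and with 2 arrays left out together, and the differences within arrays, were added after the data were seen. Promoters came from RefSeq (GRCr8), where 49 members had one. One further exposed D0 array (the sixth) was not used here. The number of arrays limits the precision.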

Additional observations from a re-analysis of the deposited data

Results flagged for a closer look

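In 8 of the 72 groups looked at (18 named members in 4 groups) the highest or lowest array lay far from the rest of its group, where chance gives about 1 in 20. Exposed array 4 of D0 read 13.32 for Psmb8 (nearest 12.53), 13.86 for Psmb9 (nearest 12.85) and 9.43 for Tap1 (nearest 8.05), all on the log2 scale. Control array 4 of D28 read 8.52 for Nlrc5 (nearest 8.84) and 15.44 for RT1-A2 (nearest 16.16). Among the controls of D0, array 3 read 8.05 for Ciita (nearest 8.25), array 2 read 13.35 for RT1-Da (nearest 13.00) and array 1 read 6.41 for Cd86 (nearest 5.24).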

How the results depend on the processing

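Members called on D0 numbered 2, and 0 when each probe was tested on its own, with older gene names, with a FC of at least 1.5 or with the replicate number as a replicate block. They numbered 1 with only the arrays of the day, 4 with probes well above background, 6 with array weights, 5 with slide as a random block and 10 as a fixed block, and 0 to 3 without 1 array. On D28 they numbered 0, and 1 with 75th percentile scaling, probes well above background, intensity trend and robust variances or 2 arrays left out together, 3 with either slide block or 2 residual components, and 0 to 2 without 1 array. Over both days they numbered 7, and 11 with the median signal, probes well above background or 2 residual components, 13 and 14 with slide as a fixed and random block, 0 with a FC of at least 1.5, 5 with the replicate block and 5 to 9 without 1 array. Same-numbered rats had r from -0.225 to -0.117 on D0 and from -0.174 to 0.455 on D28, where replicates 2, 4 and 5 were above 0.1 and the other 3 were not, so the numbers were not taken to pair them. Between the controls, 2 were called with 2 residual components and 0 to 1 without 1 array. The class I median of D0 turned from 0.08 to -0.021 with 2 arrays left out together and to -0.019 without exposed array 4 of D0, the lowest of a range up to 0.13 without 1 array; that of class II ranged from 0.27 to 0.46. The r of Ciita and Cd74 passed at 0.60 with 75th percentile scaling, 0.46 with cyclic loess and 0.52 with normexp, and ranged from 0.31 to 0.55 without 1 array. That of Nlrc5 and B2m passed at 0.66 with 75th percentile scaling and 0.61 with cyclic loess, and ranged from 0.16 to 0.55. That of Tap1 and Psmb9 no longer passed at 0.73 with normexp and 0.71 with the median signal or the deposited table, and ranged from 0.35 to 0.85. The causes were not tested. Of 2193 values of single members, 84 changed sign while past the threshold in neither fit.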
